A study of Mus musculus with 6 samples.

Results

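The interferon response genes are a list of 40 genes whose transcription rises when a cell senses type I or type II interferon. A gene was read here if a probe set of the array was annotated with its symbol alone, and from its probe set of highest mean over the 6 arrays. This gave values for 38 of the 40 genes, out of 18193 genes measured in all, from 63 probe sets. No value is given for Isg15, whose probe set is annotated with a second gene as well, or for Ifi44, whose expression was not analysed here.

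All samples were the myeloid clone C6, a line of mouse blood progenitor cells of the strain Rosa26rtTA C57BL/6J, which carries the doxycycline-responsive activator rtTA at the Rosa26 locus. The clone holds the construct pRRL.TET.Evi1.IRES.EGFP, in which doxycycline induces Evi1, a zinc finger transcription factor, together with the reporter EGFP. The doxycycline group (n = 3 arrays) was kept under the drug at 1 µg/ml, and the withdrawal group (n = 3 arrays) was collected 48 h after the drug was removed. Both groups grew in the same medium with mouse stem cell factor (50 ng/ml), mouse interleukin 3 (20 ng/ml), human FLT3 ligand (50 ng/ml) and human interleukin 11 (50 ng/ml), and no interferon is named among the additions. The comparison addresses the transcripts that follow Evi1 expression, and loss of Evi1, loss of the drug and loss of the reporter cannot be told apart in it. Because this is 1 clone, and separate cultures are not stated, each p-value reflects how far arrays of a group scattered, and that scatter may be technical.

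As background, type I interferons signal through the receptor chains IFNAR1 and IFNAR2 and the kinases JAK1 and TYK2 to transcription factors that include STAT2 and IRF9 and act at the interferon-stimulated response element in promoters. Interferon gamma signals through its own receptor, acts at gamma-activated sites and induces IRF1, a further activator of guanylate-binding protein, immunoproteasome and peptide transporter genes. The products of these genes block viral entry, degrade or sequester viral RNA, attack the vacuoles of intracellular microbes and cut and carry peptides for display on class I molecules. Blood progenitor cells are known to respond to interferons and to express some of these genes without infection.

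RefSeq promoter windows (assembly GRCm38.p6, 250 bases before to 50 bases after an annotated start) were found for 31 of the 40 genes. The interferon-stimulated element was searched as GAAANNGAAA on both strands, and at least 1 match lay in the windows of 18 of these 31 genes (58.1%), against 3.99% of 27025 genes with a window. With the shorter form GAAANNGAA the shares were 61.3% and 9.76%. The gamma-activated site, searched as TTCNNNGAA, which reads the same on both strands, was present for 11 of 31 (35.5%), against 9.55% of all genes. The windows below are those of the 7 genes that fell and have one, and of Tap1 and Ifit1, and are written 5′ to 3′ on the strand of the gene with matches to GAAANNGAAA, or to its reverse complement, in capitals.
Cxcl10: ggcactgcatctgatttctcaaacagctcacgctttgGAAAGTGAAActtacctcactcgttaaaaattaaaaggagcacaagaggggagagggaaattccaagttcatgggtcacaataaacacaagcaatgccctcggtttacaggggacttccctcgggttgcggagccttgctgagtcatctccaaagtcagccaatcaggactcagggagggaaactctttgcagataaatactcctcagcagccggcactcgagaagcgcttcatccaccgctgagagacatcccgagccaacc
Gbp2: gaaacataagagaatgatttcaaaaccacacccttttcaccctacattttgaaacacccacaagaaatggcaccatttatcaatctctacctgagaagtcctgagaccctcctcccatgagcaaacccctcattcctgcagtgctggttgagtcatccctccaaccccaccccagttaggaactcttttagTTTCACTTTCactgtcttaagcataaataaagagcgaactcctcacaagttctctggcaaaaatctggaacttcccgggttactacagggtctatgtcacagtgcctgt
Gbp3: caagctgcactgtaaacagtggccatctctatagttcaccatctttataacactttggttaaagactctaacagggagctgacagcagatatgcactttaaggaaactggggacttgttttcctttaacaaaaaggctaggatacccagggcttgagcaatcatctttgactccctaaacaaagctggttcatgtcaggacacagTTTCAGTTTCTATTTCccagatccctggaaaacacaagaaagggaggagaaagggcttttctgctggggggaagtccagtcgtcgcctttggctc
Gbp7: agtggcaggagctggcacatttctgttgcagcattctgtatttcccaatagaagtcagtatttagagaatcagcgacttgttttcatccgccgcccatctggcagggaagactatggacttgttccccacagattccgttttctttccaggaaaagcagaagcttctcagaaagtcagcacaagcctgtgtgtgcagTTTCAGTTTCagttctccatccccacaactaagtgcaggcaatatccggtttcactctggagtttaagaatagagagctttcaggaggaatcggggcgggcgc
Ifitm3: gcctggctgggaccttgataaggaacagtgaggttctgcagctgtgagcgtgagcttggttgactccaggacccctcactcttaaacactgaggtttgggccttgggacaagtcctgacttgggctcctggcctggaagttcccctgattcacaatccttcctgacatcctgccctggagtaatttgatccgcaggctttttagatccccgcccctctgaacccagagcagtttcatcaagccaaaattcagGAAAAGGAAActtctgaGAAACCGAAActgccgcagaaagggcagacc
Psmb8: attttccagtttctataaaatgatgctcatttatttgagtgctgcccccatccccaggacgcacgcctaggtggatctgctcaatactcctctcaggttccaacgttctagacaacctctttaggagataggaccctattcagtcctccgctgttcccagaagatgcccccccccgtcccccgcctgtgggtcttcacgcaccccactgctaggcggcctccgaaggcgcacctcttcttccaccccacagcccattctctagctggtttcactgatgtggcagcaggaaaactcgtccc
Xaf1: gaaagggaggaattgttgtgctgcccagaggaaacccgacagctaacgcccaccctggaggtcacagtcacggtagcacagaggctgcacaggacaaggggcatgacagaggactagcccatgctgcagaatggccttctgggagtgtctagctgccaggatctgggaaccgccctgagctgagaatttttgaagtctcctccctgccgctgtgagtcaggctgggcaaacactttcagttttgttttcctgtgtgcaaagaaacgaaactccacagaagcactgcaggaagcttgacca
Tap1: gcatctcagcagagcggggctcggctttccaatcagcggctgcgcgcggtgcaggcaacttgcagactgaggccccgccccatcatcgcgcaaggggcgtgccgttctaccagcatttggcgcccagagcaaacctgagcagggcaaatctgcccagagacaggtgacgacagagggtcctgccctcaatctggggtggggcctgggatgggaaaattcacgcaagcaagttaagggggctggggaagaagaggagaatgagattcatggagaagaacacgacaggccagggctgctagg
Ifit1: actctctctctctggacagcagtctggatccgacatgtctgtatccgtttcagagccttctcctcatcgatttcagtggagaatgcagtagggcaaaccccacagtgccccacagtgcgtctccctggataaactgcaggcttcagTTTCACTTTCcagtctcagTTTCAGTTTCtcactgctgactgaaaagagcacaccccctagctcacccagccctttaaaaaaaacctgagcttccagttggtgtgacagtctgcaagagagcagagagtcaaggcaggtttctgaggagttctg
The windows lie at chr5:92348840-92349139 on the minus strand (Cxcl10), chr3:142620413-142620712 (Gbp2), chr3:142559794-142560093 (Gbp3) and chr3:142530086-142530385 (Gbp7) on the plus strand, chr7:141010695-141010994 on the minus strand (Ifitm3), chr17:34197945-34198244 (Psmb8), chr11:72301379-72301678 (Xaf1) and chr17:34187306-34187605 (Tap1) on the plus strand and chr19:34640639-34640938 on the plus strand (Ifit1). Each of the 3 guanylate-binding protein genes of the list held the element close before its start, with first bases 59 (Gbp2), 45 and 39 (Gbp3, as an overlapping pair) and 53 (Gbp7) bases before it. Oas1a, Irgm1, Igtp and Trim30a, which did not pass, held it at least as close before theirs. In Cxcl10 the match began 213 bases before the start, and in Ifitm3 the matches began 2 and 19 bases after it. The windows of Psmb8 and Xaf1, which also fell, hold no match to either form of the element; that of Psmb8 holds a gamma-activated site beginning 97 bases before its start, and that of Xaf1 none. Tap1 is shown because its window holds no match and shares 275 bases with that of Psmb9, which is read from the opposite strand. Ifit1 is shown because it holds the element, beginning 104 and 85 bases before its start, and its transcript did not pass the test. The element was present for 5 of the 7 genes with a window that fell and for 12 of the 22 measured genes with a window that did not pass. A match is a description of letters, not evidence that a factor binds there.

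**Figure D1:**
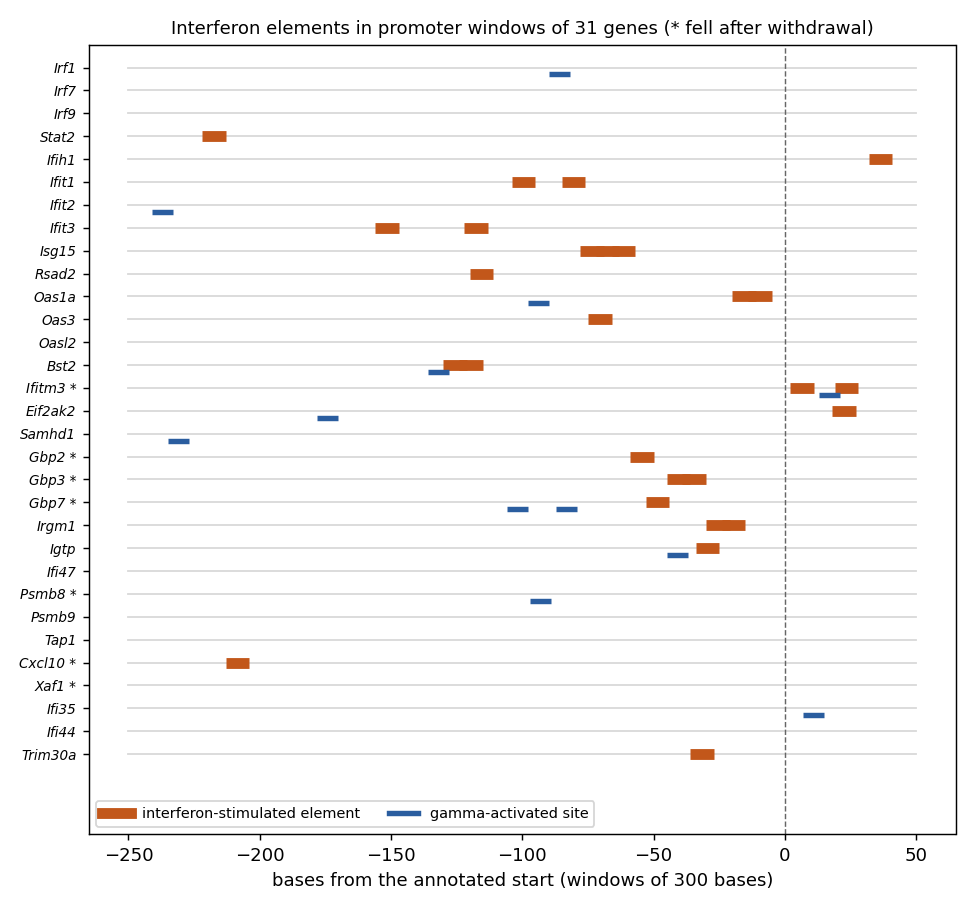
Positions of the interferon-stimulated element (orange) and of the gamma-activated site (blue, drawn slightly lower) in 1 promoter window for each of 31 genes, as bases from the annotated start; where RefSeq gave several windows the one with most matches of the first kind is drawn. The element lies within 60 bases before the start in Gbp2, Gbp3 and Gbp7, all marked as fallen. It does so too in Oas1a, Irgm1, Igtp and Trim30a, which did not pass. Psmb9 and Tap1, and Xaf1, which fell, are among the genes that hold neither.

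After doxycycline withdrawal 8 of the 38 measured interferon response genes fell and 0 rose. Those that fell were Cxcl10, Ifitm3, Gbp2, Gbp3, Gbp7, Xaf1, Rtp4 and Psmb8, by 1.27-fold (Psmb8) to 2.33-fold (Cxcl10). Rose and fell are used of genes with an adjusted p below 0.05 in limma with Benjamini-Hochberg adjustment over all 45037 probe sets. Of all 18193 genes 1.57% fell and 1.2% rose by the same rule, and of the 11143 genes above the median level of probe sets 2.33% fell and 1.89% rose. Of the 63 probe sets of the list 10 fell and 0 rose, against 1.18% and 0.79% of all probe sets. All 8 of the genes that fell were among the 31 interferon response genes above that level. At an unadjusted p below 0.05, 22 of the 38 were lower and 1, Zbp1, was higher, against 8.26% and 8% of all genes. Counts by this unadjusted rule in the shorter lists below are to be read beside these shares.

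Small shifts in the same direction ran through most of the list. The difference, always withdrawal minus doxycycline on the log2 scale, was below 0 for 30 of the 38 genes, against 46% of all genes. Its median was -0.19 over the list and 0.01 over all genes. For 23 of the 38 genes (60.5%) each withdrawal array lay below each doxycycline array, against 12.2% of all genes, and for 3 genes (Stat2, Zbp1 and Ifit1) each lay above, against 12.4%. The plots of values by array and of the differences with their intervals show these shifts gene by gene.

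**Figure D2:**
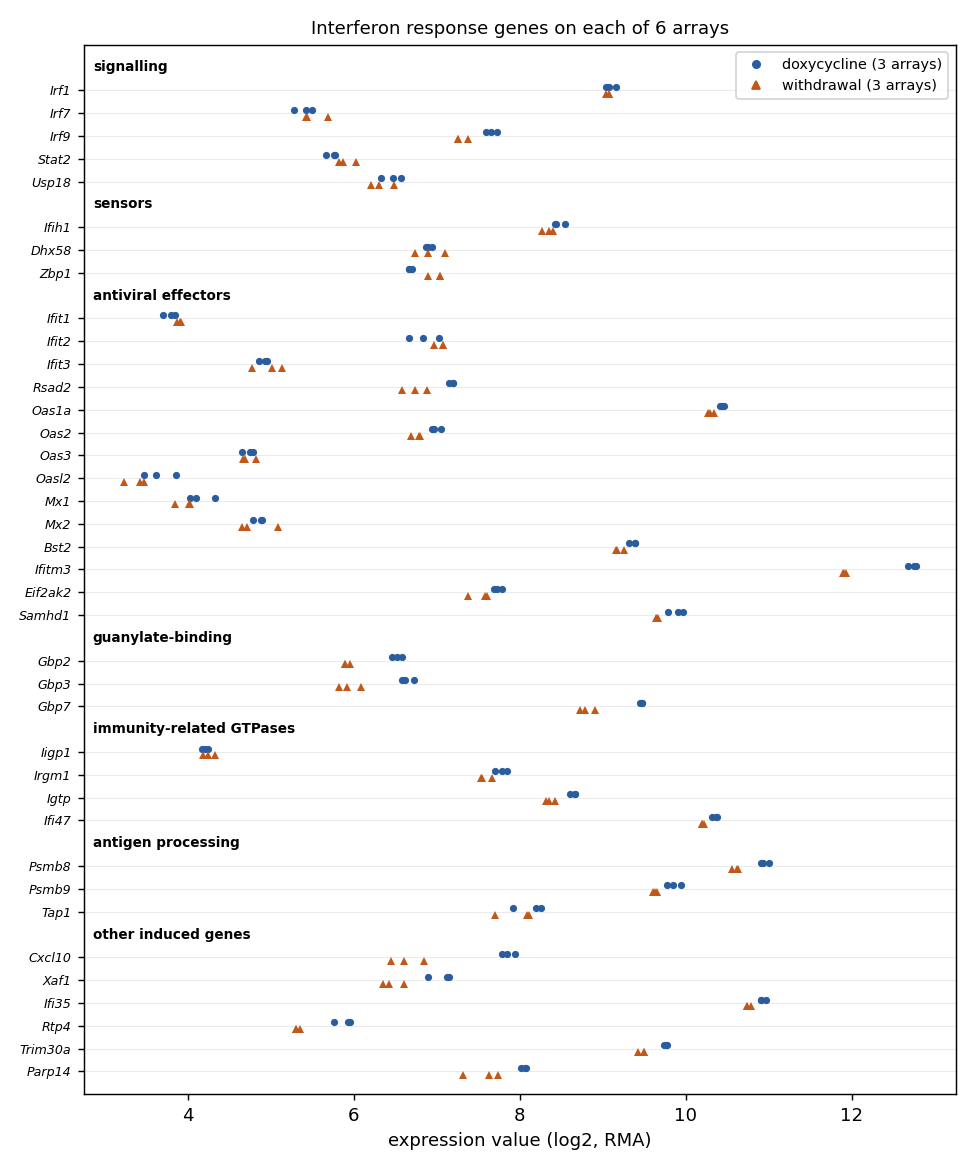
Expression values (log2, RMA) of the 38 measured genes on each array, blue circles for the 3 doxycycline arrays and orange triangles for the 3 withdrawal arrays, ordered by role. The groups are apart with withdrawal lower in 23 genes, most widely in Cxcl10, Ifitm3 and the guanylate-binding genes Gbp2, Gbp3 and Gbp7.

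**Figure D3:**
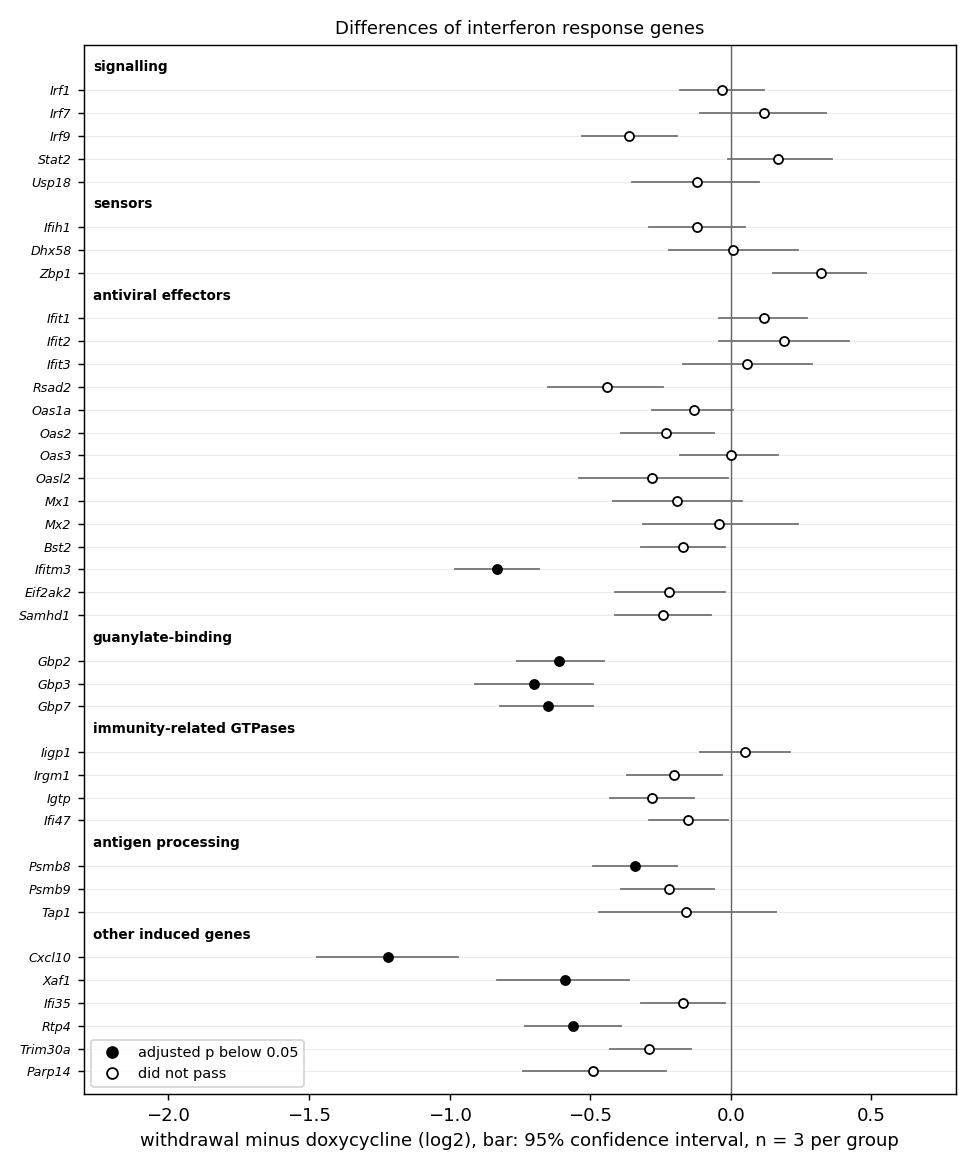
Differences (log2, withdrawal minus doxycycline) with 95% confidence intervals from limma, n = 3 arrays per group, filled where the adjusted p was below 0.05. The 8 filled points run from -1.22 (Cxcl10) to -0.34 (Psmb8).

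The genes of interferon signalling itself did not pass. Of 5 measured regulators 0 fell and 0 rose by limma, and at an unadjusted p below 0.05 the count was 1 lower and 0 higher. That gene was Irf9, the DNA-binding subunit of the type I complex, with values of 7.65, 7.59 and 7.73 under doxycycline and 7.38, 7.25 and 7.26 after withdrawal. The groups did not overlap, and the difference was -0.36 ± 0.07 (SE) at an adjusted p of 0.0608, just outside the threshold. Its partner Stat2 lay the other way, at 5.77, 5.76 and 5.67 under doxycycline and 5.82, 5.87 and 6.03 after withdrawal, a difference of 0.17 ± 0.08 (adjusted p = 0.391). A second, dimmer probe set of Stat2 differed by -0.05, so the sign of this gene is not settled by the array.

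Irf1, the activator induced by interferon gamma, was at 9.09 ± 0.06 (SD, n = 3) under doxycycline and 9.06 ± 0.02 (SD, n = 3) after withdrawal. Its difference of -0.03 had a 95% interval from -0.18 to 0.12, which does not reach the differences of Gbp2, Gbp3 and Gbp7. The interval reflects scatter between these arrays, which may be technical, so it cannot exclude a larger change between cultures. Irf7, which amplifies interferon alpha production, differed by 0.12 (interval -0.11 to 0.34). Usp18, a protease that removes ISG15 from proteins and damps the type I receptor, differed by -0.12 (interval -0.35 to 0.10). For Irf1, Irf7 and Usp18 the groups overlapped.

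Among the 3 nucleic acid sensors 0 fell and 0 rose by limma, with 0 lower and 1 higher at an unadjusted p below 0.05. The higher one was Zbp1, which senses left-handed nucleic acids and can trigger necroptosis. It was at 6.66, 6.70 and 6.67 under doxycycline and at 6.89, 7.04 and 7.04 after withdrawal, with no overlap. The difference was 0.32 ± 0.07 (adjusted p = 0.0778). The dimmer probe set of Zbp1 differed by 0.17 (adjusted p = 0.48), with overlapping groups. Ifih1, which encodes the RNA sensor MDA5, differed by -0.12 (interval -0.29 to 0.05), and Dhx58, which encodes its relative LGP2, by 0.01 (interval -0.22 to 0.24).

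Of the antiviral effectors 14 were measured, of which 1 fell and 0 rose; at an unadjusted p below 0.05, 7 were lower and 0 higher. The one that fell was Ifitm3, a membrane protein that blocks the fusion of viruses in endosomes and a bright transcript in these cells. It was at 12.68, 12.77 and 12.75 under doxycycline and at 11.89, 11.93 and 11.90 after withdrawal. The arrays of each group lay close together and far from the other group, and the gene was 1.78-fold lower (-0.83 ± 0.06, adjusted p = 0.00111). This call was kept in each of the 15 alternatives tried. Its relatives Ifitm1 and Ifitm2 differed by -0.06 (adjusted p = 0.719) and -0.20 (adjusted p = 0.305).

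Rsad2, which encodes viperin, an enzyme that makes a chain-terminating nucleotide, was next in size among the effectors. It was at 7.19, 7.15 and 7.20 under doxycycline and 6.74, 6.88 and 6.58 after withdrawal, without overlap. The difference of -0.44 ± 0.09 had an adjusted p of 0.0522, just outside the threshold, and its other probe sets, both dimmer, differed by -0.13 and -0.23. Oas1a and Oas2, synthases of the messenger that activates RNase L, differed by -0.13 and -0.23, and Oas3 by 0.00, with intervals of -0.28 to 0.01, -0.39 to -0.06 and -0.18 to 0.17. Samhd1, which hydrolyses deoxynucleotides, differed by -0.24 (adjusted p = 0.188), and all 5 of its probe sets had differences below 0. Eif2ak2, the RNA-activated kinase PKR, differed by -0.22, but its other probe sets by -0.01 and 0.05. Bst2, or tetherin, which holds budding virions at the cell surface, differed by -0.17 (adjusted p = 0.298). On the probe sets read here the groups did not overlap for Rsad2, Oas1a, Oas2, Samhd1, Eif2ak2 and Bst2. With Ifitm3 that was 7 of the 14 effectors (50.0%), each with withdrawal lower, against 12.2% of all genes. On the dimmer probe sets of Rsad2 and Eif2ak2 and on 1 of Samhd1 the groups overlapped.

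The Ifit genes, whose proteins bind viral RNA, had differences above 0. Ifit1 was at 3.70, 3.85 and 3.80 under doxycycline and 3.92, 3.87 and 3.91 after withdrawal, near the lower quartile of probe set levels (3.79), where RMA compresses differences. Ifit2 differed by 0.19 (interval -0.04 to 0.42) and Ifit3 by 0.06 (interval -0.17 to 0.29), and neither passed. Oasl2, Mx1 and Mx2 were also below the median level of 5.24, with differences of -0.28, -0.19 and -0.04 and overlapping groups. Mx1 encodes a GTPase that blocks influenza virus in mice with an intact allele, which C57BL/6 mice lack.

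Of the guanylate-binding protein genes the list holds 3, Gbp2, Gbp3 and Gbp7, and all 3 fell. Of 3 further measured genes of the family, outside the list, 0 passed by limma and 0 had an unadjusted p below 0.05: Gbp2b differed by 0.11 (adjusted p = 0.791), Gbp6 by 0.14 (adjusted p = 0.596) and Gbp8 by -0.20 (adjusted p = 0.461). These 3 were dim, below the median level, and their groups overlapped. The proteins are large GTPases that coat and break the vacuoles and membranes of intracellular microbes. Gbp3 was at 6.73, 6.62 and 6.58 under doxycycline and 6.09, 5.92 and 5.82 after withdrawal, and was 1.62-fold lower (-0.70 ± 0.09, adjusted p = 0.0109). Gbp7 was at 9.47, 9.47 and 9.45 and then at 8.91, 8.73 and 8.78, and was 1.57-fold lower (-0.65 ± 0.07, adjusted p = 0.00553). Gbp2 was at 6.46, 6.58 and 6.52 and then at 5.95, 5.90 and 5.89, and was 1.52-fold lower (-0.61 ± 0.07, adjusted p = 0.00549). In each the doxycycline arrays lay above the withdrawal arrays with a gap wider than the range within either group. Their differences were close to one another, and the genes are neighbours on chromosome 3, with 0 other protein-coding genes between Gbp7 and Gbp3 and 1 between Gbp3 and Gbp2 in the RefSeq table.

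The second probe sets of Gbp2 (-0.45, adjusted p = 0.0286) and Gbp7 (-0.58, adjusted p = 0.0107) were called as well. The brighter probe set of Gbp2 is of a type that can hybridise with related sequences. The calls of Gbp2 and Gbp7 were kept without any 1 array, with adjusted p up to 0.0397 and 0.0415. That of Gbp3 was lost without withdrawal replicate 2 or any 1 doxycycline array, with adjusted p up to 0.0660.

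The immunity-related GTPases, a second family that acts on microbial vacuoles, were at smaller differences. Of 4 measured 0 fell and 0 rose by limma; 3 were lower and 0 higher at an unadjusted p below 0.05. Igtp was at 8.67, 8.60 and 8.66 under doxycycline and 8.42, 8.35 and 8.32 after withdrawal (-0.28 ± 0.07, adjusted p = 0.0894). Irgm1 differed by -0.20 and Ifi47 by -0.15, with adjusted p of 0.260 and 0.324. For Igtp, Irgm1 and Ifi47 each withdrawal array lay below each doxycycline array. The share was 12.2% of all genes and 17.7% of genes above the median level. Iigp1 was dim, at 4.21 and 4.26, and differed by 0.05.

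Of the 3 antigen processing genes 1 fell. Psmb8, a catalytic subunit that replaces a standard one in the immunoproteasome, was at 10.93, 10.90 and 11.00 under doxycycline and 10.56, 10.61 and 10.63 after withdrawal. It was 1.27-fold lower (-0.34 ± 0.06, adjusted p = 0.0467), just inside the threshold, and it no longer passed when any single array was dropped (adjusted p of at most 0.185). A dimmer probe set of Psmb8 differed by -0.22 and did not pass (adjusted p = 0.311). Psmb9, another such subunit, was at 9.77, 9.84 and 9.94 and then at 9.60, 9.65 and 9.63 (-0.22 ± 0.07, adjusted p = 0.197), again without overlap.

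Tap1, a subunit of the pump that carries peptides into the endoplasmic reticulum, overlapped between groups, at 7.92, 8.26 and 8.19 and then at 8.11, 8.09 and 7.70 (-0.16 ± 0.14, adjusted p = 0.683). Its 3 dimmer probe sets differed by 0.20, 0.15 and 0.21, so its direction depends on the probe set. Psmb9, Tap1 and Psmb8 follow one another on chromosome 17 with 0 protein-coding genes between them. Psmb9 and Tap1 start from the shared stretch shown above, and neither passed.

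Set side by side, guanylate-binding and antigen processing genes showed 4 falls among 6 measured and antiviral effectors 1 among 14. Over all genes the share that fell was 1.57%. The lists also differ in level, with medians of 8.59 and 6.91. All 6 genes of the first but 8 of the 14 effectors lay above the median level of probe sets. Of the 7 members at or below that level 0 fell, and the 8 brighter effectors had a median difference of -0.22. The median difference was -0.48 (range -0.70 to -0.16) in the first and -0.18 (range -0.83 to 0.19) in the second, against 0.01 over all genes. The difference between the lists was not tested, because the genes were chosen with results known. The first list is not uniform, since its guanylate-binding part has a median of -0.65 and its antigen processing part of -0.22, close to the effectors. Its count was 2 without withdrawal replicate 2 or any 1 doxycycline array, and 0 without withdrawal replicate 3 and doxycycline replicate 1 together, the arrays described below as standing apart, while the medians with 1 array left out stayed between -0.49 and -0.46 and, for the effectors, between -0.20 and -0.14.

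**Figure D4:**
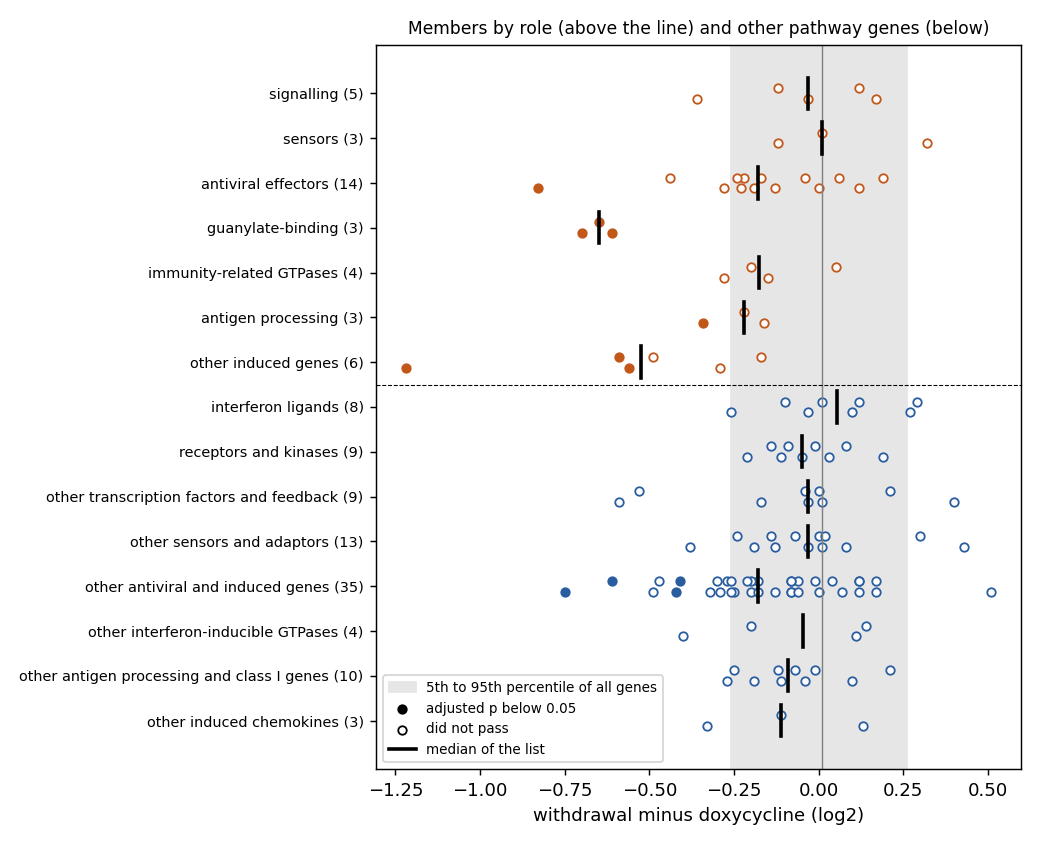
Differences (log2, withdrawal minus doxycycline) by role, with the number of measured genes in brackets, filled where the adjusted p was below 0.05; black bars are medians, and the grey band holds the 5th to 95th percentile of all genes (-0.26 to 0.26). The 3 guanylate-binding genes of the list lie wholly outside the band with a median of -0.65. Most antiviral effectors lie inside the band, with a median of -0.18. Ifitm3 (-0.83), Rsad2 (-0.44) and Oasl2 (-0.28) lie below it.

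Of the 6 measured genes with other functions 3 fell. On the probe sets read here all 6 had non-overlapping groups with withdrawal lower, against 12.2% of all genes. Cxcl10, the chemokine that draws T cells and natural killer cells through the receptor CXCR3, showed the largest difference of the 38 genes. It was at 7.78, 7.94 and 7.84 under doxycycline and 6.85, 6.60 and 6.45 after withdrawal, which is 2.33-fold lower (-1.22 ± 0.11, adjusted p = 0.00248), and its call was kept in each of 15 alternatives. Xaf1, an antagonist of the apoptosis inhibitor XIAP, was at 6.90, 7.15 and 7.12 and then at 6.61, 6.42 and 6.35 (-0.59 ± 0.10, adjusted p = 0.0320). Rtp4, a transporter protein for receptors, was at 5.95, 5.93 and 5.76 and then at 5.31, 5.30 and 5.35 (-0.56 ± 0.07, adjusted p = 0.0129).

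The calls of Xaf1 and Rtp4 were less stable than that of Cxcl10 when single arrays were left out. Xaf1 held its call only when withdrawal replicate 1 was the array dropped, and otherwise reached an adjusted p of up to 0.144. Rtp4 did not pass without withdrawal replicate 2, doxycycline replicate 1 or doxycycline replicate 2 (adjusted p up to 0.0747). Their dimmer probe sets, at 4.36 and 3.33, differed by -0.02 and 0.14, and when all probe sets of a gene were averaged neither passed. Parp14, a mono-ADP-ribosyltransferase, was at 8.07, 8.02 and 8.06 and then at 7.74, 7.63 and 7.31 (-0.49 ± 0.11, adjusted p = 0.0820). Its dimmer probe set differed by -0.06 (adjusted p = 0.879), with overlapping groups. Trim30a, a ubiquitin ligase family member that restrains Toll-like receptor signalling in mice, differed by -0.29 (adjusted p = 0.0730) and Ifi35 by -0.17 (adjusted p = 0.274). The dimmer probe sets of Ifi35 differed by -0.13 and -0.02, with overlapping groups.

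The wider pathway, 105 further genes in 8 lists, held 91 measured genes. At an unadjusted p below 0.05, 24 of these (26.4%) were lower and 9 higher, against 8.26% and 8% of all genes. By limma with adjustment 4 fell and 0 rose, or 4.40% that fell against 1.57% of all genes. All 4 were antiviral or induced genes, a list of 35 measured with a median difference of -0.18. Uba7, the enzyme that activates ISG15, was at 9.85, 10.01 and 9.97 under doxycycline and 9.32, 9.28 and 8.98 after withdrawal (-0.75 ± 0.11, adjusted p = 0.0166). Epsti1 differed by -0.61 (adjusted p = 0.0189), Tdrd7 by -0.42 (adjusted p = 0.0394) and Nmi, the binding partner of Ifi35, by -0.41 (adjusted p = 0.0212). When all probe sets of a gene were averaged, Tdrd7 differed by -0.21 and did not pass (adjusted p = 0.134). Uba7, Epsti1 and Nmi kept their calls there. In these 4 genes the groups did not overlap, and each call was lost without 4 or more of the single arrays, so that 0 of the 91 fell without withdrawal replicate 2 or any 1 doxycycline array. Without withdrawal replicate 1 the count was 2. Lgals9 (0.51 ± 0.20) and Slfn8 (-0.49 ± 0.12) had the largest differences among the genes of that list that did not pass.

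Upstream of these genes 0 fell and 0 rose by limma. By the unadjusted rule 8.26% of all genes were lower and 8% higher. Of 8 interferon genes Ifna1 (0.29, adjusted p = 0.117) and Ifna5 (0.27, adjusted p = 0.320) had the largest differences, at levels of 5.52 and 4.24 after withdrawal, and at an unadjusted p below 0.05, 1 was lower (Ifna11, -0.26, at a level of 2.87 after withdrawal) and these 2 were higher. The probe sets of Ifna1 and Ifna5 are of the type that can hybridise with related sequences, so they may not report separate transcripts. Among 9 receptor and kinase genes Ifnar1 differed by -0.21 and Ifngr1 by 0.19, and 1 was lower and 1 higher by the unadjusted rule. Among 9 other regulators Nlrc5, an activator of class I genes, differed by -0.59 ± 0.14 (adjusted p = 0.102) and Irf8, a factor of monocyte and dendritic cell development, by -0.53 ± 0.10 (adjusted p = 0.0537). By the unadjusted rule both were lower, and the feedback inhibitor genes Socs1 (0.40) and Socs3 (0.21) were higher. Among 13 sensors and adaptors the kinase gene Ikbke differed by 0.43 (adjusted p = 0.0665) and Mavs by -0.38 (adjusted p = 0.522); by the unadjusted rule Ifi204 was lower (-0.24), and Ikbke and Ticam1 (0.30) were higher.

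Among 4 further interferon-inducible GTPase genes Irgm2 differed by -0.40 ± 0.08 (adjusted p = 0.0539) while the guanylate-binding genes Gbp8, Gbp2b and Gbp6 had the differences given above, so that 2 of the 4 lay below 0 and 2 above, with a median of -0.05. By limma 0 fell or rose, and Irgm2 was the 1 gene lower by the unadjusted rule. In the list of 10 other antigen processing and class I genes 0 fell or rose by limma, with 3 lower and 1 higher by the unadjusted rule. Erap1, which trims peptides, differed by -0.27, and Psmb10, the third immunoproteasome catalytic subunit, by -0.25. These and Psme1 (-0.19), a proteasome activator subunit, were the 3 lower genes, and Tapbpl (0.21), a peptide editor of class I molecules, was the 1 higher. The class I light chain gene B2m differed by -0.07 (interval -0.21 to 0.08). Of the 3 other induced chemokine genes Ccl5 differed by -0.33 (adjusted p = 0.0948) and Cxcl9, at 3.64 and 3.51, by 0.13.

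The extremes of the 38 genes were spread over several arrays. Withdrawal replicate 3 was the lowest of the 6 arrays in 15 of them and doxycycline replicate 2 the highest in 11, while a withdrawal array was the lowest in 30 and a doxycycline array the highest in 28. The median deviation of the 38 genes from their group mean lay between -0.03 and 0.03 on each array. Withdrawal replicate 3 and doxycycline replicate 1 stood apart from the rest on the second principal component of the probe sets above the median level. Without both, a choice made after seeing the data, 2 of the 38 genes (Cxcl10 and Ifitm3) and 0.302% of all genes fell.

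**Figure D5:**
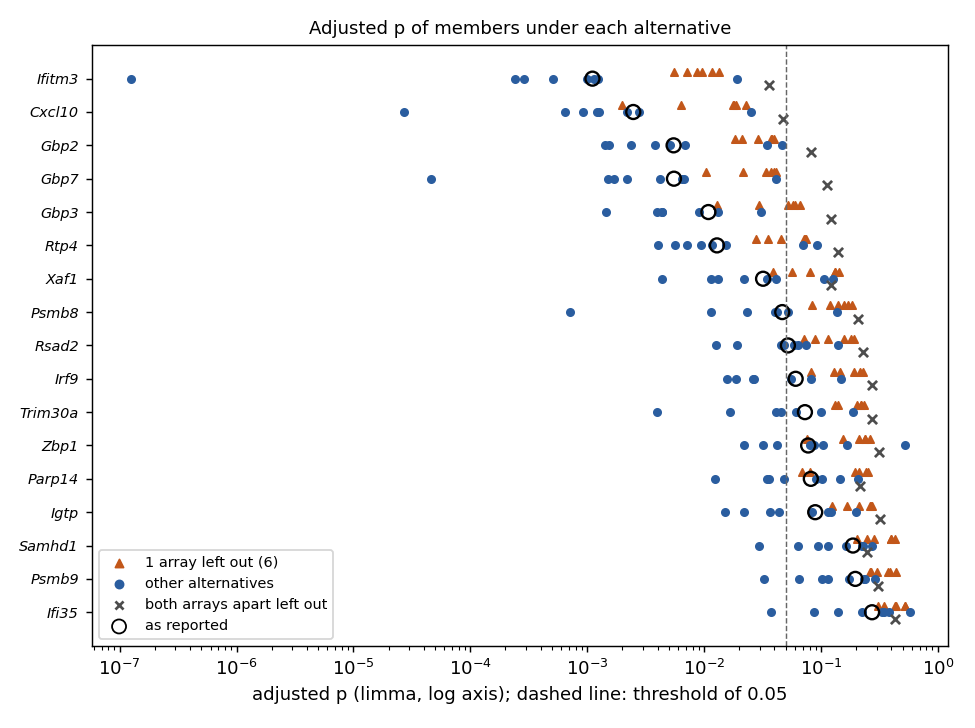
Adjusted p from limma (log axis) for each gene that passed in at least 1 setting, with the reported value as a ring, fits without 1 array as triangles, fits without both arrays that stood apart as crosses and other alternatives as dots; the dashed line is 0.05. Ifitm3 and Cxcl10 stay left of the line throughout, while Psmb8 passes right of it for each of the 6 triangles.

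All 7 blood progenitor markers (Kit, Cd34, Ptprc, Spi1, Myb, Mpo and Csf2rb) were above the median level, and so were 7 of 8 macrophage markers, so this level does not single out the labelled cell type. Of the progenitor markers Cd34 fell (-0.51, adjusted p = 0.0463) and 0 rose. At an unadjusted p below 0.05, 1 was lower and 4 were higher, against 8.26% and 8% of all genes. The higher ones were Kit (0.26), Spi1 (0.27), Mpo (0.32) and Csf2rb (0.34). Each had the withdrawal arrays wholly above, against 12.4% of all genes. For the 7 progenitor markers the summed linear signal ran from 46657 to 47409 after withdrawal and from 39982 to 41562 under doxycycline. This sum is weighted to the brightest markers and is not a measure of all 7. Mpo had log2 means of 14.44 after withdrawal and 14.12 under doxycycline, and Csf2rb of 13.14 and 12.80. The differences of Cd34 and Ptprc (-0.15) were below 0. Of the 8 macrophage markers Csf1r, Cd68 and Mpeg1 fell and 0 rose, with 4 lower and 0 higher by the unadjusted rule, and the summed linear signal of the 8 ran from 7894 to 8331 after withdrawal and from 10018 to 10077 under doxycycline. The part of these transcripts in the falls of interferon response genes was not tested, and fewer cells of a type and less RNA per cell cannot be told apart in such samples. Of 6 plasmacytoid dendritic cell and 5 lymphocyte markers 0 passed by limma and 0 had an unadjusted p below 0.05, with summed signals of 271 to 282 and 195 to 207 after withdrawal and 284 to 293 and 199 to 205 under doxycycline.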

How the data were processed

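Total RNA of 6 samples was amplified as cDNA, labelled with biotin and hybridised to 1 array each, per the labels' protocols. The deposited values are log2 expression values per probe set, made with RMA per the submitters' processing notes; RMA corrects background, equalises array distributions and summarises probes, so a shift of most transcripts one way would be removed and differences of dim probe sets are understated. The log2 unit was read from the range of the values. For the version of RMA and the chip definition, nothing is given in the sources used here. Array medians ran from 5.22 to 5.27, and correlations between arrays from 0.994 to 0.998. The number of arrays limits the precision.

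Of 45101 rows 64 control probe sets were left out. Of the 45037 tested, 34945 carried 1 gene symbol and 932 several. The comparison used limma 3.58.1 (lmFit, then eBayes; R 4.3.3) on all arrays without covariates, with 4 residual and 3.54 prior degrees of freedom, two-sided, with Benjamini-Hochberg adjustment over all probe sets and a threshold of 0.05. The steps were tested on simulated data. Fold changes are powers of the log2 difference. Gene order, promoter windows and names come from RefSeq (GRCm38.p6), and figures from matplotlib 3.10.9 in Python 3.11.15.

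The genes, role groups and lists were chosen with earlier results of these data known, so no list was tested. Every measured member is described or shown. Of the other pathway lists, the text names each gene past the threshold, the 2 with the largest differences among the rest, and genes behind a count of 5 or fewer; Ifitm1, Ifitm2 and B2m were named after their values were seen. Alternatives were each array left out, a replicate block, only probe sets above the median level, 2 other scalings, trend and robust options, array weights, averaging the probe sets of each gene, leaving out probe sets with shared names, and, added later, a fit without 2 arrays.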

Additional observations from a re-analysis of the deposited data

How the results depend on the processing

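The 8 falls among 38 interferon response genes became 4 to 7 with 1 array left out, and 5 with the replicate block. They became 13 among the 31 genes whose probe sets lay above the median level, 16 with trend and robust options and 13 with array weights, with 1 rise (Zbp1) in each of these 3 fits. Without withdrawal replicate 3 and doxycycline replicate 1, an alternative added after seeing the data, 2 fell. The share of all genes that fell moved as well, from 1.57% to between 0.517% and 1.00% with 1 array left out, 0.588% with the block, 5.21% above the median level, 4.02% with trend and robust options and 2.69% with array weights. The 4 falls of guanylate-binding and antigen processing genes became 2 or 3 with 1 array left out, 2 among the 4 genes with a probe set without a shared name, and 0 without these 2 arrays. Their median of -0.48 became -0.41 with probe sets averaged by gene and -0.34 over those 4 genes. The single fall of an antiviral effector became 2 above the median level, with repeated quantile normalization and with array weights, and 3 with trend and robust options. The 4 falls of other pathway genes became 0 to 3 with 1 array left out, 1 with the block, 14 above the median level, 17 with trend and robust options, 10 with array weights, 7 with probe sets averaged by gene and 0 without these 2 arrays. The rises there went from 0 to 0 or 1 with 1 array left out, 4 above the median level, 2 with repeated quantile normalization, 4 with trend and robust options, 2 with array weights and 2 with probe sets averaged by gene. Differences near 0 changed sign with 1 array left out for Irf1 (-0.06 to 0.01), Dhx58 (-0.08 to 0.10), Ifit3 (-0.02 to 0.16), Oas3 (-0.05 to 0.03) and Mx2 (-0.17 to 0.04), and with probe sets averaged by gene for Dhx58 (-0.04) and Tap1 (0.10); none of these was called in any setting. The fits on fewer arrays have fewer residual degrees of freedom, and the cause of the other shifts was not tested. Deviations of arrays with the same replicate number correlated at -0.304, 0.460 and -0.033. With 3 arrays per group these values cannot settle whether the numbers pair the arrays. The number of arrays limits what can be called, and dim probe sets understate differences.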
